A study of Homo sapiens with 4 samples.

Results

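The genes of 10 receptor-type protein tyrosine phosphatases, PTPRD, PTPRF, PTPRG, PTPRJ, PTPRK, PTPRM, PTPRN2, PTPRS, PTPRT and PTPRZ1, were examined for peaks of H3K27ac and of HSF1 in HCT116 cells, an established human colorectal carcinoma line. A peak belonged to a gene where the deposited annotation gave it that gene's symbol, whatever the distance, so the assignment is one of position and not a measured target. The 10 genes are members of a background of 29853 RefSeq genes, and they held 22 of 15789 H3K27ac peaks and 64 of 13127 HSF1 peaks. ChIP-seq, the sequencing of DNA that an antibody pulls down with chromatin, gave 4 libraries, an immunoprecipitate (IP) of H3K27ac, an IP of HSF1 and 1 input for each IP. H3K27ac is a histone acetylation found at active promoters and enhancers, and HSF1 is the main transcription factor of the heat shock response. The cells of all 4 libraries were of the same line, carried no stated genetic change and were fixed with formalin untreated, and each group was 1 library. Hence no value had a replicate error, no test between conditions was possible, and all intervals cover counting error only.

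Receptor-type tyrosine phosphatases span the plasma membrane once, with an extracellular part that often resembles cell adhesion molecules and a cytoplasmic part that removes phosphate from tyrosine. The LAR type (PTPRD, PTPRF and PTPRS) binds synaptic partners, proteoglycans and, inside the cell, liprins. The MAM-domain type (PTPRK, PTPRM and PTPRT) binds the same molecule on neighbouring cells and acts at cadherin junctions. PTPRJ dephosphorylates growth factor receptors such as MET, PTPRG and PTPRZ1 carry a domain like carbonic anhydrase that binds contactins, and PTPRN2 is a protein of dense-core vesicles with little phosphatase activity.

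The promoters of PTPRD and PTPRM are shown because either gene has an outer start, at its 5′ end, and an inner start far inside it, and because most peaks of both genes lay deep inside the gene, away from the outer start. The sequences are the 250 bases before each start, 5′ to 3′ on the gene's strand, from RefSeq on GRCh38.p14, with CpG dinucleotides in capitals. The outer PTPRD promoter is chr9:10613003-10613252 (minus strand), the inner one chr9:8733947-8734196 (minus strand), the outer PTPRM promoter chr18:7567066-7567315 (plus strand) and the inner one chr18:7946625-7946874 (plus strand).
PTPRD outer promoter: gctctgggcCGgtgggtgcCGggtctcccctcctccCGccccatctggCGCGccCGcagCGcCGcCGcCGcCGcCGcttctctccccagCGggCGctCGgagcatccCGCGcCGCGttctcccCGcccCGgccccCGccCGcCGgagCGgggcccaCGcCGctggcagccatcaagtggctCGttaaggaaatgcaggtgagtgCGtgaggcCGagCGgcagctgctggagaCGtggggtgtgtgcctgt
PTPRD inner promoter: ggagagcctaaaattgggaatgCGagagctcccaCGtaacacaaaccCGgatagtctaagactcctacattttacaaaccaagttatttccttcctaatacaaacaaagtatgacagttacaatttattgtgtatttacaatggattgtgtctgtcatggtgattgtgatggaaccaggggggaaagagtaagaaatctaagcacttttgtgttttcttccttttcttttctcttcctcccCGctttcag
PTPRM outer promoter: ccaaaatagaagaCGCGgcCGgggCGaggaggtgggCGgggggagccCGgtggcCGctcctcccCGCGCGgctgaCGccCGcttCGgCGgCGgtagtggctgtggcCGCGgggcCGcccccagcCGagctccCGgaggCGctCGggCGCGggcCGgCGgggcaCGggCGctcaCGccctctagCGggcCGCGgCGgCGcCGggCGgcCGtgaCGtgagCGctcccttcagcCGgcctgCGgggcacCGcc
PTPRM inner promoter: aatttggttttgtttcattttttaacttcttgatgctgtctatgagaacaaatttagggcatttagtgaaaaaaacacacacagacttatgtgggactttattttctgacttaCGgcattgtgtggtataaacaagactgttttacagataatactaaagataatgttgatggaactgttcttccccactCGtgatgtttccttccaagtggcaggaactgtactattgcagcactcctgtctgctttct
The outer promoters were rich in G and C, and the inner ones were not. The outer PTPRD promoter had 76.0% GC and 32 CpGs, and the inner one 39.6% GC and 4 CpGs. The outer PTPRM promoter had 81.6% GC and 42 CpGs, and the inner one 36.4% GC and 2 CpGs. The median over 35116 promoters of the same length was 58.0% GC with 11 CpGs. The RefSeq promoter sequences used here covered 8 of the 10 genes with 11 promoters, among them a further PTPRD promoter that is not shown, and PTPRJ and PTPRN2 had no entry. HSF1 binds inverted repeats of GAA, which were searched as letters on both strands. GAANNTTC was present in 5.78% of all promoters, TTCNNGAA in 6.62% and GAANNTTCNNGAA, which contains both, in 0.441%, and none of these was present in the 11 promoters. With only 11 promoters, shares like those of all promoters were not detectable, so nothing is concluded from this absence.

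Either list was described by the authors' tag counts in each peak, with 485046 tags in H3K27ac peaks and 317289 in HSF1 peaks, while library depth is unknown here. The lowest score, which is 10 times the negative log10 of the p-value, was 50 for H3K27ac and 30 for HSF1, so the lists had different thresholds and their values are compared only within a list. As a check of the label, 8 of 12 colonic epithelium markers had an H3K27ac peak, against 24.6% of all genes, and EPCAM, VIL1, CDX1 and CDX2 had none. Of the markers of other cell types, 1 of 5 for leukocytes (PTPRC), 1 of 5 for neurons and glia (SYT1) and 3 of 5 for fibroblasts and endothelium (KDR, VWF and DCN) had such a peak. SYT1 had 14 H3K27ac peaks, more than EHF with 12, the most of the epithelial markers. The check therefore does not separate epithelium from fibroblasts and endothelium.

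Peaks of H3K27ac, of HSF1 or of both were assigned to each of the 10 genes except PTPRN2. An H3K27ac peak was assigned to 7 of 10 (70.0%, exact 95% interval 34.8 to 93.3%), against 24.6% of the 29853 genes. An HSF1 peak was assigned to 5 of 10 (50%, 18.7 to 81.3%), against 13.6% of all genes. The 10 genes were chosen with earlier results of these data known, so the intervals are no test against all genes. PTPRG, PTPRK and PTPRM had both kinds, 3 of 10 against 3.48% of all genes. PTPRF, PTPRJ, PTPRS and PTPRZ1 had H3K27ac peaks without HSF1 peaks, PTPRD and PTPRT had HSF1 peaks without H3K27ac peaks, and PTPRN2 had neither. A promoter-class peak of H3K27ac was present at 1 of 10 genes, PTPRF, against 9.98% of all genes, and a promoter-class HSF1 peak at none, against 0.697%. These counts depended on peaks far from the starts. Within 100 kb of the assigned start 3 of 10 genes had an H3K27ac peak, against 23.6% of all genes, 3 had an HSF1 peak, against 11.2%, and none had both. The share of all genes with both under this limit was not computed, so the last count has no background beside it. Among protein-coding genes alone the backgrounds were 28.5% for H3K27ac and 12.4% for HSF1. The 9 genes with a deposited extent were 97.6 to 2299 kb long, against a median of 27.4 kb over 10474 genes with a peak in either list, and the part of length in these counts was not tested.

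**Figure D1:**
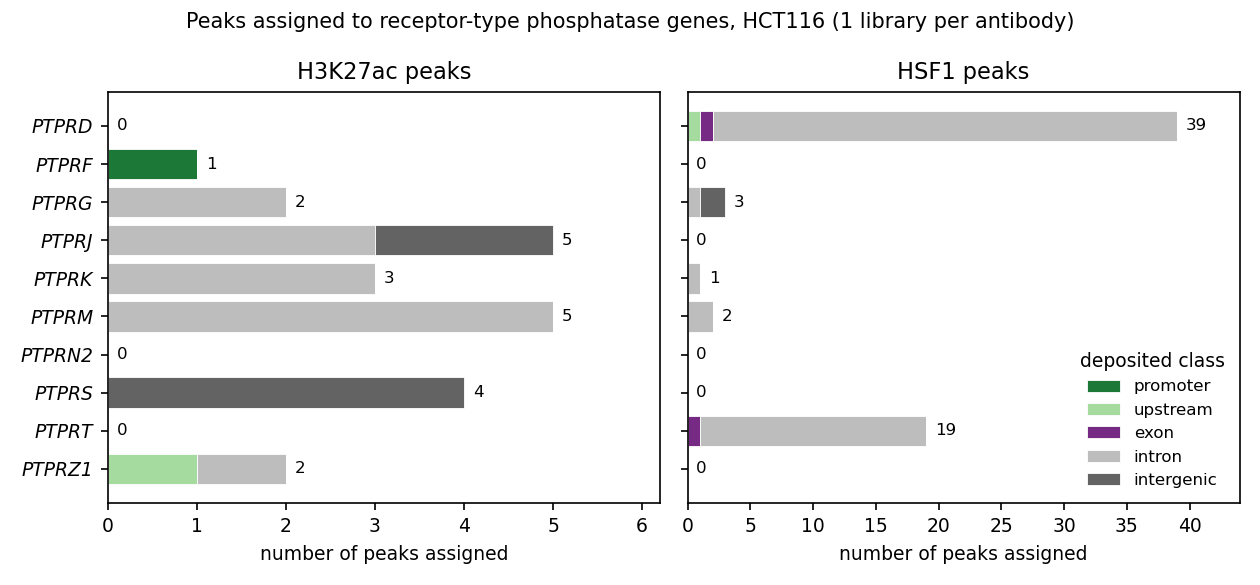
Number of H3K27ac peaks (left) and HSF1 peaks (right) assigned to each of the 10 genes, 1 library per antibody, coloured by the deposited annotation class, with separate linear axes. The H3K27ac peaks number at most 5 per gene, while PTPRD with 39 and PTPRT with 19 hold most of the HSF1 peaks.

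By fold enrichment, the strongest H3K27ac peaks of these genes were at PTPRJ and PTPRM. The 22 peaks had folds over local background of 5.05 to 9.54 with a median of 6.94 (order-statistic 95% interval 5.77 to 7.69), against a median of 6.73 and quartiles of 5.76 and 7.35 over the list. Their median tag count was 19.5, against 24 over the list. Thus the fold enrichment was near that of the list, and the tag count was lower. The midpoints of 16 of the 22 peaks (72.7%) lay over 100 kb from the assigned start, against 18.0% of the list, and 14 (63.6%, exact 95% interval 40.7 to 82.8%) were intronic, against 33.4%.

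Among LAR-type genes, PTPRF, which also binds cadherin complexes, had 1 H3K27ac peak, chr1:43990073-43991048 (hg19, as all peak positions), with 5.61-fold enrichment and 19 tags. Its midpoint was 1.15 kb before the start, and no peak lay in the body of the gene. PTPRS, a receptor for heparan and chondroitin sulfate proteoglycans, had 4 peaks within 8.33 kb (chr19:5166197-5174521), with 6.17-, 7.14-, 5.64- and 6.17-fold enrichment and 18, 17, 27 and 19 tags. All 4 were intergenic and 167 to 174 kb from the start, beyond the 3′ end of PTPRS, so its own body (135 kb) held none. PTPRD had no H3K27ac peak.

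Among MAM-domain genes, PTPRM had 5 H3K27ac peaks, all intronic and 355 to 473 kb inside the gene. They had 8.42-, 8.98-, 7.14-, 8.98- and 5.77-fold enrichment with 19, 23, 23, 22 and 20 tags, in order along the gene. Both peaks of 8.98-fold enrichment (chr18:7945733-7946940 and chr18:7973337-7974527) stood at the 95.1st percentile of the list by fold, but only at the 48.3rd and 44.3rd by tags. The inner PTPRM start printed above lies 379.6 kb from the outer one in GRCh38.p14, and the midpoint of the peak at chr18:7945733-7946940 lay 379.0 kb from the deposited hg19 start. The outer start is at 7567313 in the deposited hg19 annotation, and the outer promoter sequence ends at 7567315 in GRCh38.p14, so the numbering is nearly the same there. By number, the inner promoter sequence (7946625-7946874) lies within this peak. Positions were not converted between builds, so whether this peak covers the inner start was not tested. PTPRK, a gene that is fused to RSPO3 in a subset of colorectal tumours, had 3 intronic peaks, 187, 206 and 455 kb inside the gene, with 7.69-, 7.30- and 6.73-fold enrichment and 25, 24 and 20 tags. PTPRT had none.

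PTPRJ had 5 H3K27ac peaks, as many as PTPRM, and those of most tags. The peak at chr11:48008403-48010514, intronic and 7.35 kb inside the gene, held 46 tags at 7.89-fold enrichment and had the highest score of the 22 (116.19). The intergenic peak at chr11:47944689-47947119, 56.2 kb before the start, held 44 tags at 9.54-fold enrichment, the 97.3rd percentile of the list by fold. The other 3 held 18, 30 and 18 tags at 7.30-, 5.05- and 7.30-fold enrichment. One more H3K27ac peak inside PTPRJ (chr11:48118458-48119466, 7.30-fold, 20 tags) was assigned to the microRNA gene MIR3161 as a promoter-class peak and is not in the count. Only the 2 PTPRJ peaks of most tags had scores of 100 or more, and under that threshold 1 of 10 genes kept a peak, against 5.75% of all genes. Of the 22 peaks, these 2 also had the highest deposited false discovery rates, 31.71 and 25.65%.

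The genes with a domain like carbonic anhydrase had 2 H3K27ac peaks each. PTPRG had intronic peaks 333 and 678 kb inside the gene, with 5.61- and 6.17-fold enrichment and 17 tags each. PTPRZ1, a proteoglycan of glial cells that binds pleiotrophin, had a peak 3.60 kb before the start with 5.61-fold enrichment and 18 tags, and an intronic peak 124 kb inside with 6.17-fold enrichment and 17 tags. All 4 were under the list's median by fold and by tags.

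**Figure D2:**
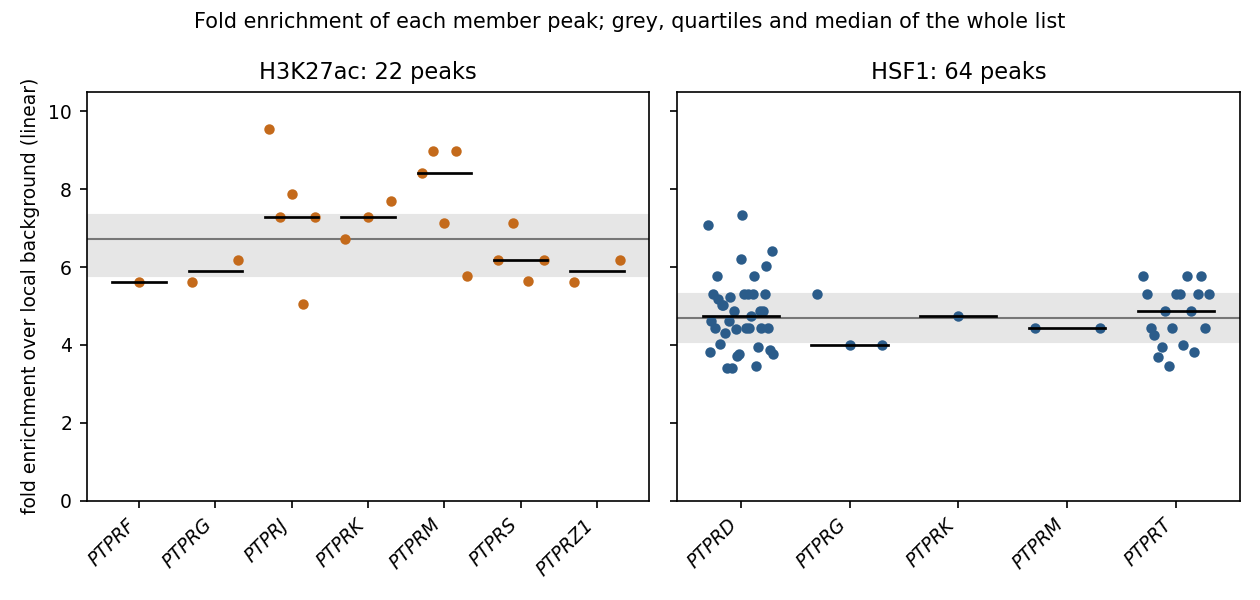
Fold enrichment over local background (linear axis) of each H3K27ac peak (left, 22 peaks) and HSF1 peak (right, 64 peaks) by gene, with a black bar at each gene's median and the list's quartiles and median in grey. PTPRJ reaches 9.54-fold and PTPRM 8.98-fold for H3K27ac, and PTPRD reaches 7.33-fold for HSF1, while the HSF1 medians of PTPRD and PTPRT lie within the grey band.

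The H3K27ac peaks were also joined over gaps of up to 10 kb and ranked by summed width times fold, as is done to find stretches of dense acetylation. Of 10295 joined regions 279 were above the tangent point of the ranked curve, and none of these held a peak of the 10 genes. The 22 peaks of these genes formed fewer than 22 joined regions, too few to detect a share like that of the whole list. The highest ranks were 899 for the 2 intergenic PTPRJ peaks, 1238 for the 4 PTPRS peaks and 1783 for 2 PTPRM peaks.

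HSF1 peaks accumulated along PTPRD, an organiser of synapses that binds IL1RAPL1 and SLITRK proteins, and PTPRT, which dephosphorylates STAT3 and is mutated in a subset of colorectal tumours. PTPRD had 39 HSF1 peaks, and of 4101 symbols with an HSF1 peak 12 had more. PTPRT had 19, and 88 symbols had more, while the median over symbols was 1. The other HSF1 peaks were 3 at PTPRG, 2 at PTPRM and 1 at PTPRK. Without PTPRD and PTPRT there were 6 HSF1 peaks, of which 4 were intronic. Under a score of 50, the threshold of the H3K27ac list, 8 HSF1 peaks were left, all at PTPRD, and 1 of 10 genes had a peak, against 2.96% of all genes.

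In fold enrichment and tags these peaks were near the HSF1 list, and in class they were not. The 64 peaks had a median fold of 4.68 (95% interval 4.43 to 5.03), against 4.68 over the list, and a median of 20.5 tags, against 20. Of the 64 peaks, 59 (92.2%, exact 95% interval 82.7 to 97.4%) were intronic, against 28.8% of the list, and 2 (3.13%) were intergenic, against 62.5%. The intronic peaks were mostly those of PTPRD (37) and PTPRT (18), so the interval does not measure a spread over genes. Of the 64 peaks, 57 (89.1%) lay over 100 kb from the assigned start, against 57.9%.

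The PTPRD peaks had 3.40- to 7.33-fold enrichment and 15 to 36 tags, with medians of 4.74-fold and 24 tags. The highest fold was at an intronic peak, chr9:9338402-9339702 (7.33-fold, 24 tags), which was at the 99.3rd percentile of the list. It was followed by an exonic peak at the 3′ end of the gene, chr9:8313899-8315577 (7.09-fold, 29 tags), and an intronic peak 29.2 kb inside the outer start, chr9:10582942-10584568 (6.41-fold, 32 tags). The exonic peak had the highest score of the 64 (62.44), and the most tags, 36, were in an intronic peak at chr9:9974545-9976975 with 4.87-fold enrichment. The peak nearest to a start, chr9:10615379-10616513, lay 2.94 kb before the outer start with 3.77-fold enrichment and 17 tags, in the lower part of the list (11.6th percentile by fold). The remaining peaks were intronic. By the first deposited row of each peak, 30 peaks were assigned to the outer PTPRD start and 9 to the inner one, which are 1879 kb apart. The midpoint closest to the inner start among those 9 lay 43.951 kb from it.

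The PTPRT peaks had 3.45- to 5.76-fold enrichment and 13 to 31 tags, with medians of 4.87-fold and 21 tags. The highest fold, 5.76, was shared by an exonic peak near the 3′ end, chr20:40706911-40707886 (15 tags), and the intronic peaks chr20:41480811-41482324 (24 tags) and chr20:41710311-41711847 (22 tags). The most tags, 31, were at chr20:41074589-41076572 with 3.69-fold enrichment. The peak nearest to the start, chr20:41791604-41792364, lay 26.6 kb inside the gene with 5.32-fold enrichment and 13 tags. PTPRT peaks thus had a lower top fold than PTPRD peaks and a like median.

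Both genes had nearly the same density of HSF1 peaks. The PTPRD body (2299 kb) held 39 peaks, including 1 assigned to LOC105375972 (6.04-fold) and without the one before the start, which is 17.0 per Mb, against 3.61 per Mb on the rest of chromosome 9. The PTPRT body (1117 kb) held 19, also 17.0 per Mb, against 4.01 per Mb on the rest of chromosome 20. The median spacing was 44.3 kb in PTPRD and 31.7 kb in PTPRT, with largest gaps of 234 and 185 kb. When the gene was divided into 4 equal parts in the direction of transcription, PTPRD had 5, 12, 11 and 11 peaks and PTPRT 5, 4, 8 and 2. The peaks were therefore spread over either gene and covered 2.64% of PTPRD and 2.37% of PTPRT. No H3K27ac peak lay in either body, although chromosome 9 had 4.25 and chromosome 20 had 5.65 H3K27ac peaks per Mb.

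The HSF1 peaks of PTPRG, PTPRK and PTPRM were few, with low scores and at most 17 tags. PTPRG had 2 intergenic peaks 113 and 94.4 kb before the start (5.32- and 3.99-fold, 17 and 16 tags) and 1 intronic peak 473 kb inside (3.99-fold, 17 tags). PTPRK had 1 intronic peak, chr6:128726547-128727347, with 4.74-fold enrichment and 13 tags. PTPRM had intronic peaks 127 and 715 kb inside, with 4.43-fold enrichment each and 14 and 16 tags. Their scores were between 30.52 and 33.35, just above the threshold of 30, so that none was left at a score of 40, where 2 of 10 genes (PTPRD and PTPRT) had 21 peaks, against 5.82% of all genes.

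**Figure D3:**
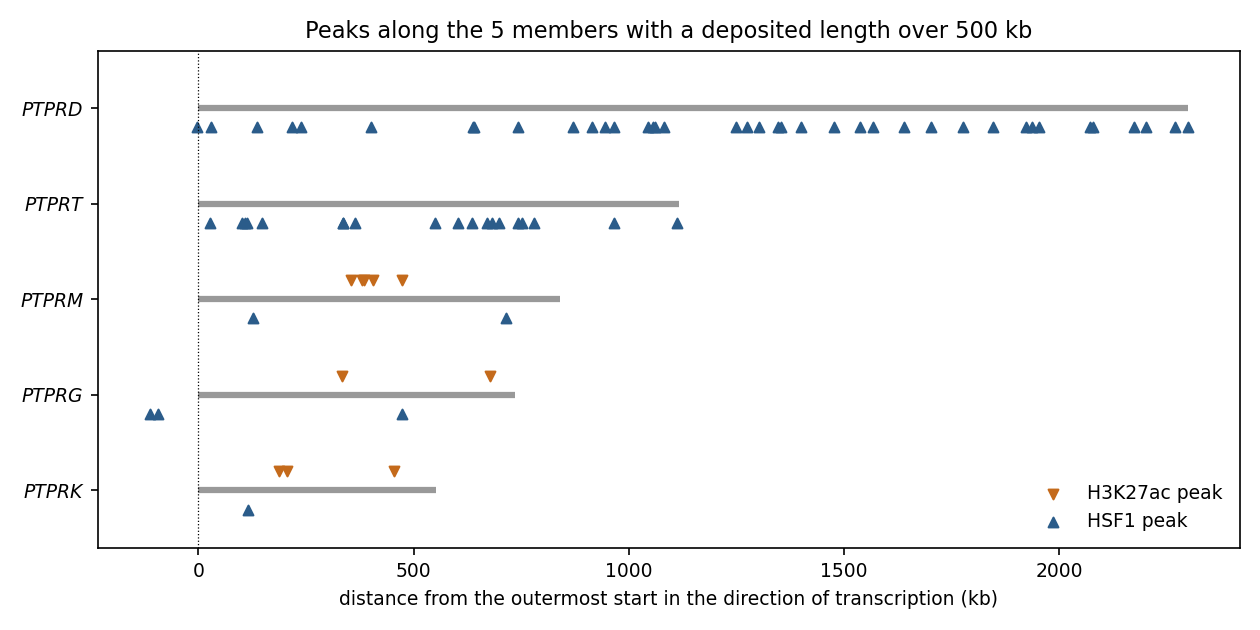
Position of H3K27ac peaks (triangles pointing down, above the gene) and HSF1 peaks (triangles pointing up, below the gene) along the 5 genes with a deposited length over 500 kb, as distance in kb from the outermost start in the direction of transcription. HSF1 peaks run through PTPRD and PTPRT, which have no H3K27ac peak, and lie apart from the H3K27ac peaks in PTPRM, PTPRG and PTPRK.

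The distance of the HSF1 peaks to H3K27ac peaks was measured next, where only the 6 HSF1 peaks of PTPRG, PTPRK and PTPRM belong to genes with both kinds. None of the 64 HSF1 peaks overlapped an H3K27ac peak, which allows a share of up to 4.69%, against 39 of 13127 (0.297%) over the list, so a share like that of the list was not detectable with 64 peaks. None lay within 10 kb of one, against 1.77% of the list, which is likewise under the limit of 4.69%. The closest pair was in PTPRK, 70.9 kb apart (HSF1 4.74-fold, H3K27ac 7.69-fold). In PTPRG the intronic HSF1 peak was 139 kb from the nearest H3K27ac peak, and the intergenic ones 280.1 and 299 kb, and in PTPRM the peaks were 227 and 241 kb from theirs. The HSF1 peaks of PTPRT were at least 560 kb from an H3K27ac peak, the nearest being one assigned to CHD6. Those of PTPRD were at least 1356 kb away, with a median of 2302 kb.

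PTPRD and PTPRT were set beside other long genes. There were 232 genes of 500 kb or more with a peak in either list, of which 132 had no H3K27ac peak in the body. These 132 had a median of 13.7 HSF1 peaks per Mb (quartiles 6.99 and 17.7), and the 100 with an H3K27ac peak had a median of 2.03 per Mb (quartiles 1.31 and 3.80). PTPRD and PTPRT, at 17.0 per Mb, lay between the quartiles of the genes without H3K27ac, and 38 and 36 of the 232 were denser. PTPRM, PTPRK and PTPRG, at 2.38, 1.81 and 1.36 per Mb, lay between the quartiles of the genes with H3K27ac. Across the 232 genes, which share the 2 libraries, HSF1 and H3K27ac densities had Pearson's r = -0.35 and Spearman's rho = -0.67. This is a description only, because a gene entered with a peak in at least 1 list, which by itself favours an inverse relation. Length and number of HSF1 peaks had r = 0.56 and rho = 0.51 across the same genes. Of the 98 symbols with 19 or more HSF1 peaks 96 had no H3K27ac peak, as PTPRD and PTPRT, against 3056 of all 4101.

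**Figure D4:**
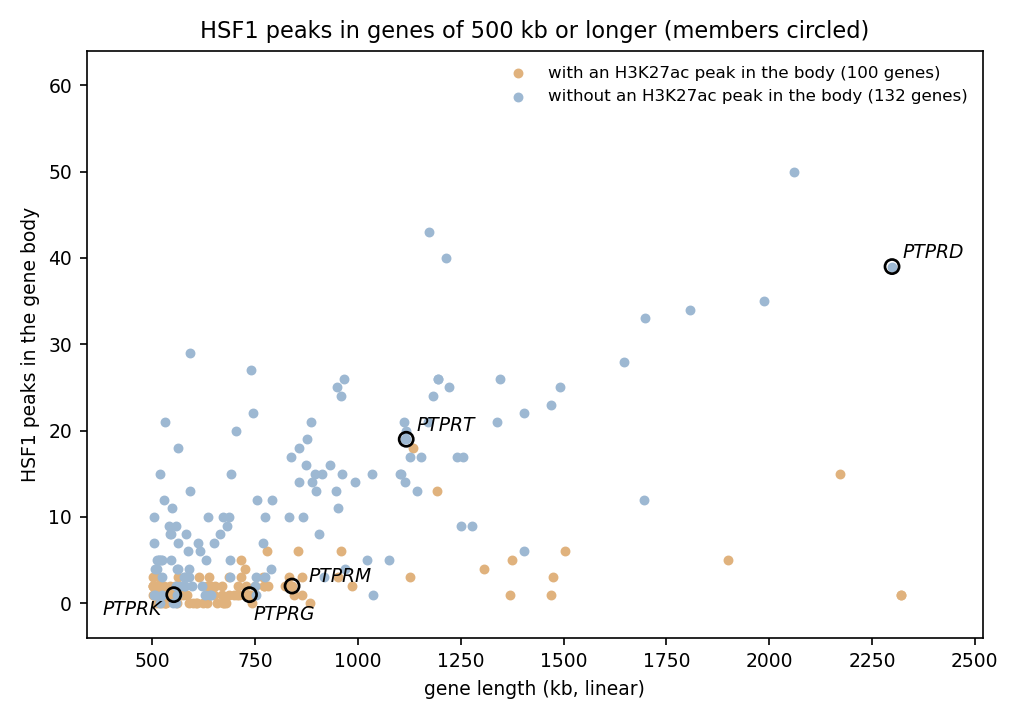
Number of HSF1 peaks in the body against gene length in kb (both axes linear) for 232 genes of 500 kb or more with a peak in either list, coloured by whether the body holds an H3K27ac peak, with the receptor phosphatase genes circled. PTPRD (39 peaks) and PTPRT (19 peaks) lie among the 132 genes without an H3K27ac peak, and PTPRM, PTPRK and PTPRG among the 100 with one.

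Genes with many HSF1 peaks and an H3K27ac peak were rare. The 5 with the most HSF1 peaks, counting genes outside the 10, were XPNPEP1 (35 HSF1 peaks), NRG1 (19), COL22A1 (17), DLG2 (15) and NCKAP5 (15), each with 1 H3K27ac peak.

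Related phosphatases were counted in the same way, against 24.6% of all genes for H3K27ac and 13.6% for HSF1. Of 10 other receptor-type genes 4 (40%) had an H3K27ac peak (PTPRC and PTPRQ 6.73-fold each, PTPRE 5.96-fold, PTPRB 5.05-fold) and 2 (20%) an HSF1 peak (PTPRO with 3 peaks up to 6.64-fold, PTPRC with 1 of 3.54-fold). PTPRC, the leukocyte antigen CD45, was the only one with both. Of 17 non-receptor genes 6 (35.3%) had an H3K27ac peak, 5 of them a promoter-class peak, and 1 (5.88%), PTPN5, an HSF1 peak of 5.17-fold. PTPN14 with 14 peaks and PTPN1, which dephosphorylates the insulin receptor, with 13 had more H3K27ac peaks than any of the 10 genes.

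The partners of these receptors were counted by side of the membrane. Of 22 extracellular ligands and partners 4 had an H3K27ac peak (IL1RAP 8.42-fold, MDK 7.86-fold, IL1RAPL1 7.30-fold and GPC4 5.61-fold) and 11 had an HSF1 peak, with 128 peaks in all. Of those, 44 were at CNTN5 and 37 at CNTN4, which encode contactins, and the highest folds were 7.53 at CNTN6, 7.09 at CNTN5, 6.93 at CNTN3 and 6.2 at PTN. None of the 22 had both kinds, against 3.48% of all genes. Of 21 cytoplasmic partners and substrates 15 had an H3K27ac peak, led by CTNND1 (10.7-fold), which encodes p120 catenin, EGFR (9.89-fold), MET (9.54-fold) and PPFIBP1, a liprin (8.98-fold). An HSF1 peak was present at 6, with 17 peaks in all, led by CTNNB1 (7.09-fold, intergenic), PPFIA2 (6.04-fold), MAGI3 and PPFIBP2 (5.32-fold each). Both kinds were present at 4 of these 21. These counts read against 24.6% of all genes for H3K27ac, 13.6% for HSF1 and 3.48% for both, and the lists were not tested.

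The deposited false discovery rates, which the caller derives from calls with IP and input exchanged, were 9.11 to 31.7% for the 22 H3K27ac peaks, with the highest rate at the PTPRJ peak of highest score, and 7.90 to 22.3% for the 64 HSF1 peaks, with the lowest at the PTPRD peak of highest score. A rate of 10% or less was reached by 6 of 22 H3K27ac peaks, against 19.5% of the list, and by 6 of 64 HSF1 peaks, against 7.07%. These 6 H3K27ac peaks had the lowest scores of the 22 (50.58 to 53.27), and the rate rose with the score over all 22. The 6 HSF1 peaks had the highest scores of the 64 (54.1 to 62.44). A low rate thus did not mark the stronger H3K27ac peaks.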

How the data were processed

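H3K27ac and HSF1 ChIP-seq peak lists of HCT116 cells, 1 per IP over its own input, were analysed. Per the labels, the authors used FastQC and Bowtie2 2.2.7 with hg19, and the study's methods name MACS for peak calling. Filters on reads, and how many mapped, are not given in the sources used here. Per peak, the authors deposited the tag count without normalization, the score, the fold enrichment as a ratio of IP over local background, and the false discovery rate as a percent. Deposited rows (39350 for H3K27ac, 24461 for HSF1) are 1 per peak and transcript and were reduced to 1 per region and symbol. The first deposited row was kept, so the start, class and distance given for a peak are those of that row. Inputs entered only through these values. A gene's extent was its longest stretch of overlapping deposited transcripts. Promoter-class peaks have a midpoint within 2 kb of a start. The background was RefSeq genes. Overlap needed 1 bp. Intervals at 95% are exact Clopper-Pearson for shares and from order statistics for medians, and the limit for a count of 0 is 3 counts of the total.

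The members and the gene lists were chosen with earlier results of these data known. All 10 members are named. Of members with over 10 peaks, the 3 of highest fold, the peak of most tags and those nearest to a start and to the other mark are described. Of other lists, up to 4 genes of highest fold are named, and a few others were chosen after their values were seen. Alternatives covered thresholds of score and fold, distance, class, joining and overlap. No values were tested between groups. Scripts were tested on simulated data (Python 3.11.15, numpy 2.4.6, pandas 2.3.3, scipy 1.17.1, matplotlib 3.10.9).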

Additional observations from a re-analysis of the deposited data

Results flagged for a closer look

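PTPRD-AS2, an antisense RNA gene whose start is 203 bp from that of PTPRD, is not one of the 10 genes, but 11 HSF1 peaks were assigned to it. It is given because these peaks lie beside PTPRD and are not among the peaks assigned to it. The median over symbols with an HSF1 peak was 1. They lay 216 to 962 kb from its start, on the side away from PTPRD, with 4.25- to 6.64-fold enrichment and 13 to 34 tags, and none lay in the body of PTPRD. PTPRD-AS2 had no H3K27ac peak.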

How the results depend on the processing

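Of 43 values under alternatives for 13 results, 20 moved by no more than 1.5 times or their interval and 23 moved. With H3K27ac scores of 100 or more, 1 gene had an H3K27ac peak, 2 peaks were left (median 8.72-fold), 0 genes had both kinds, and 0 promoter-class peaks and 0 genes with one were left. With HSF1 scores of 50 or more, 1 gene had an HSF1 peak, 8 peaks were left (7 intronic, median 5.54-fold) and 0 genes had both kinds. With scores of 40 or more, chosen after seeing the data, 2 genes had 21 HSF1 peaks. Within 100 kb of the start, 3 genes had 6 H3K27ac peaks (23.6% of all genes), 3 had 7 HSF1 peaks (11.2%) and 0 had both. With 5-fold enrichment or more, 3 genes had 25 HSF1 peaks (7.18%) and 1 had both kinds. Without PTPRD and PTPRT, also chosen after seeing the data, 6 HSF1 peaks were left, 4 of them intronic, with a median of 4.43-fold. The alternatives keep fewer peaks by construction. Shares of all genes with both kinds were not computed under them. The absence of overlap, of HSF1 peaks within 10 kb of H3K27ac (5 and 50 kb tried) and of joined regions above the tangent point held under each alternative run for it. Shares of the whole HSF1 list within 5 and 50 kb were not computed. Most of the HSF1 peaks were those of PTPRT and PTPRD, at least 560 and 1356 kb from an H3K27ac peak. No paired analysis was possible because each group was 1 library and no result came from a test.

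With a median of 19.5 tags per H3K27ac peak and 20.5 per HSF1 peak, and library depth unknown, the lack of a peak says only that none passed the caller's threshold.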

Other observations

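PTPRG-AS1, an antisense RNA gene at the 3′ side of PTPRG, had a promoter-class HSF1 peak at chr3:62303882-62305328 with 5.32-fold enrichment and 20 tags, 0.018 kb from its start and 20.6 kb beyond the end of PTPRG. It had no H3K27ac peak. None of the 10 receptor phosphatase genes had a promoter-class HSF1 peak.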
